A study of Mus musculus with 13 samples.

Results

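The hairpin Smarcc1.7 is one of a pair of short hairpin RNAs against Smarcc1, and its 4 libraries were set against the 4 libraries of the nonsilencing control hairpin (Nons) taken on the same days. These were 8 of the 13 RNA-seq libraries in the series, which also held 4 libraries of the other hairpin, Smarcc1.6, and 1 library of undifferentiated cells (Day0). All came from female mouse embryonic stem cells (mESCs), FVB/CAST F1 cells from FVB/NJ dams and CAST/EiJ sires, grown in 2i medium and then differentiated by weaning into DME HiHi, a medium with serum. The hairpin virus was added on day 2, puromycin on day 3, and RNA was taken on days 4, 5, 6 and 7, so Nons cells carried a virus and met puromycin as well. Every group had 1 library per day, the days stood in for replicates, and no label described separate cultures, so each p-value measures only the spread between these libraries. The knockdown was in a whole culture, and in bulk RNA fewer cells of a type and less RNA per cell cannot be told apart.

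Smarcc1 (BAF155) is a core subunit of BAF, an ATP-driven complex that slides and evicts nucleosomes and thereby opens promoters and enhancers. In mESCs a BAF form built around Smarcc1 works beside the pluripotency factors. When mESCs leave 2i they pass from naive pluripotency, marked by Esrrb, Klf2 and Zfp42, through a primed state towards the germ layers, and Wnt, Nodal and FGF ligands direct the first step, the primitive streak that gives mesoderm and endoderm. In female cells the same days bring the rise of Xist, the RNA that coats and silences 1 X chromosome.

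The hairpins differ in the 22 bases of the guide strand that pairs with the Smarcc1 mRNA, and these are shown because the guide decides which messages a hairpin can bind. Capitals mark bases 2 to 8, the seed, read 5′ to 3′ as DNA.
Smarcc1.7: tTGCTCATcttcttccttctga
Smarcc1.6: tGTAACTGcttcttcatcctgc
Nons: cTTACTCTcgcccaagcgagag
The guides were read from the 97-base oligonucleotides by the usual order of flank, passenger strand, loop and guide. Smarcc1.7 paired over all 22 bases with the coding sequence of Smarcc1 in exon 11 of 28 (transcript Smarcc1-201, chr9:110173911-110173932, plus strand, mm10), upstream of the exon 13 site of Smarcc1.6 (chr9:110177472-110177493). No other gene in the GENCODE M21 transcripts held a full match to either guide, and none held one to the Nons guide.

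The 13 libraries held between 13993440 and 63548093 mapped reads, and the day 5 library of Smarcc1.7 was the shallowest, against 46420573 for Nons on that day. A gene with 0 reads had been written as 0.9 reads, so such a gene carried a log2 CPM of -3.96 in that library and -5.69 in Nons on day 5. The day 6 libraries of all 3 groups and Day0 stood apart from the rest. Reads in genes made up 85.3% to 86.5% of theirs against 91.6% to 92.6% elsewhere, processed pseudogenes took 2.04% to 2.37% of reads against 0.467% to 0.615%, and ribosomal protein genes 2.00% to 2.54% against 4.68% to 7.55%. All days stayed in the comparison because each was set against Nons of the same day, and results without day 6 and without the shallow library are given beside the main counts. Among the mESC markers, Pou5f1 lay between 798 and 1490 CPM (mapped reads of the gene scaled to a common library total) in Nons and between 747 and 1531 CPM with Smarcc1.7. The 7 pluripotency markers, Pou5f1 included, summed to 5937 CPM in Day0. Their sum was 1218 to 2323 CPM in Nons and 1431 to 3111 CPM with Smarcc1.7. Sox2 went from 476 CPM in Day0 to 12.9 CPM in Nons on day 7, so Pou5f1 alone does not mark undifferentiated cells. The blood markers Ptprc and Hbb-b1 were at or near 0.

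Smarcc1 (chr9:110132037-110240178, plus strand, mm10) was lower with its hairpin in each pair of libraries. In Nons it stood at 549, 467, 310 and 237 CPM on days 4, 5, 6 and 7, and with Smarcc1.7 at 249, 220, 144 and 182 CPM. The message in Nons dropped over the course, and by day 7 the Nons library was below the day 4 library of Smarcc1.7, so the groups overlapped although every same-day difference was negative. The log2 change was -0.93 ± 0.15, which leaves 52.5% of the Nons level (adjusted p = 0.0187, limma with day as a block). Here and below, ± after a log2 change or difference is the standard error from that fit. Its spread was estimated over all 12 libraries of days 4 to 7, Smarcc1.6 included, and not from the same-day differences alone. The same-day differences were -1.14, -1.08, -1.11 and -0.38, the last being the smallest. An exact permutation within the 4 pairs gave p = 0.125, two-sided, the smallest that 16 arrangements allow. The call was lost without any single Smarcc1.7 library (adjusted p between 0.0558 and 0.106, lowest without day 4 and highest without day 6), without Nons of day 5 or day 6 (0.0666 and 0.0574), or without the whole of day 5 or day 6 (0.146 and 0.152).

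For Smarcc1.6 the levels of Smarcc1 were 171, 169, 156 and 155 CPM, a log2 change of -1.19 ± 0.15. Smarcc1.7 has been taken as the weaker hairpin, and the direct difference of 0.26 ± 0.15 (95% interval -0.08 to 0.60, adjusted p = 0.989) did not pass the test. Both hairpins were compared with the same Nons libraries.

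The test covered 13406 genes, those whose mean over the 12 libraries reached 0 on the log2 CPM scale. Of these, 226 were higher with Smarcc1.7 than with Nons, which is 1.69% of those tested, and 103 were lower, 0.768%, at an adjusted p under 0.05. At an unadjusted p under 0.05 there were 2838 genes in all. The rises were the larger changes. Their median log2 change was 1.00, and 113 of the 226 reached 1, whereas the falls had a median of -0.68 and 25 of 103 reached -1. Genes that rose also lay lower, with a median level of 3.12 log2 CPM against 4.23 for genes that fell and 4.51 for all tested genes. Of the 329, 327 differed in the same direction on all 4 days. Among all tested genes 1631 (12.2%) were higher on 4 of 4 days and 1836 (13.7%) were lower, so agreement over days was common without a call. The median same-day difference of the rises was 0.59, 0.99, 1.08 and 1.15 on days 4 to 7, and that of the falls -0.53, -0.71, -0.85 and -0.62. Protein-coding genes made up 212 of the rises and 101 of the falls.

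**Figure D1:**
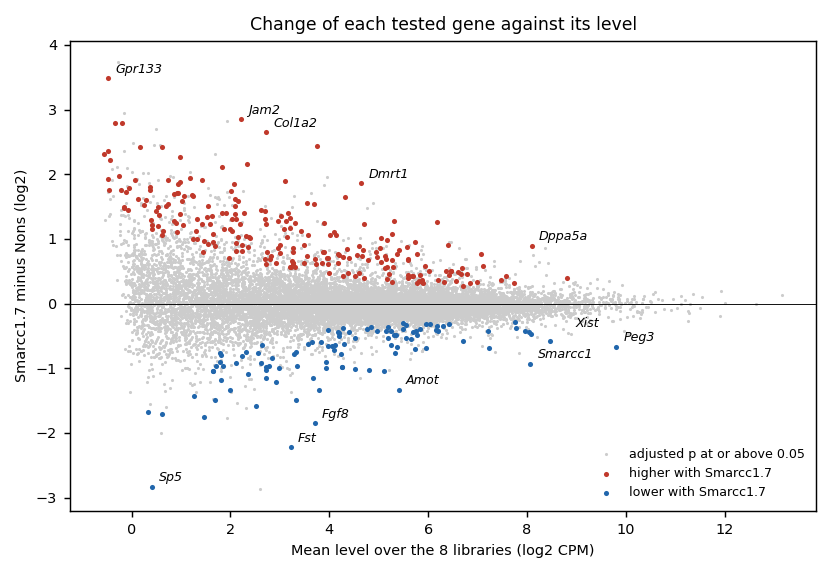
Each point is 1 tested gene, with its mean level over the 8 libraries in log2 CPM on the horizontal axis and the log2 difference of Smarcc1.7 from Nons on the vertical axis; red marks the 226 genes that were higher, blue the 103 that were lower, and grey the others. The red points reach 3.49 at low levels and the blue ones -2.83, and Smarcc1 lies among the blue points.

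The number of calls rested on all of the libraries. Without the Smarcc1.7 library of day 4 there were 45 rises and 24 falls, without that of day 5, the shallow one, 22 and 13, without day 6 4 and 2, and without day 7 19 and 14. Leaving out Nons of day 5 gave 51 and 17 and of day 6 41 and 13, while leaving out Nons of day 4 gave 630 and 422 and of day 7 280 and 205. With a whole day removed from all groups the counts were 374 and 199 (day 4), 1 and 0 (day 5), 1 and 0 (day 6) and 148 and 104 (day 7). The fit borrowed its estimate of the spread from Smarcc1.6 as well, and with only the 8 libraries no gene passed, though 1209 rises and 1154 falls had an unadjusted p under 0.05. In each of these fits all 329 genes kept their sign. For the 327 with the same sign on all 4 days, leaving out a whole day could not reverse it. The fit to the 8 libraries leaves the estimates themselves unchanged. The kept sign is therefore no separate check of the calls. A gene was taken as shifted on day 6 where it lay at least 1 log2 unit from its mean of days 5 and 7, on the same side in all 3 groups. This held for 559 genes (4.17% of those tested), and it cannot tell a technical shift from a peak or dip of the gene on that day. With these genes left out, 219 of the rises and 102 of the falls remained. Thinning every library to the depth of the shallowest gave 202 and 96.

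Genes of naive pluripotency were higher with Smarcc1.7. Of the 16 on the list, all of them tested, 9 rose and none fell, where 1.69% of all tested genes rose, and the median log2 change was 0.84 against -0.02 over all tested genes. Esrrb (chr12:86361117-86521628, plus strand), an orphan nuclear receptor of the naive network, was at 97.1, 41.8, 16.6 and 8.06 CPM on days 4 to 7 in Nons and at 205, 66.2, 28.1 and 11.01 CPM with Smarcc1.7. It declined steeply in both groups, and the hairpin library was the higher one on each day (log2 change 0.74 ± 0.11, 1.67-fold, adjusted p = 0.0125). Zfp42 (Rex1), a standard marker of the naive state, gave 105, 41.1, 22.01 and 15.7 CPM in Nons and 242, 82.04, 41.1 and 20.8 CPM with the hairpin (0.88 ± 0.12, adjusted p = 0.00926). The day 7 gap of both genes was the narrowest of the 4 days.

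Klf2, a Krüppel-like factor that sustains naive cells, stood at 59.3, 19.7, 7.81 and 4.35 CPM in Nons and 86.6, 45.4, 14.2 and 5.79 CPM with Smarcc1.7 (0.76 ± 0.15, adjusted p = 0.0309). Nr5a2, a nuclear receptor that can drive Pou5f1, went from 11.1, 4.998, 2.07 and 0.371 CPM in Nons to 26.8, 12.7, 3.55 and 2.86 CPM (1.58 ± 0.33, adjusted p = 0.0386), and its largest same-day difference, 2.95, came on day 7, where Nons had 11 reads. Prdm14, which represses FGF signalling and DNA methyltransferases, was at 6.99, 3.99, 0.881 and 0.438 CPM in Nons and 21.3, 8.29, 2.74 and 0.906 CPM with the hairpin (1.34 ± 0.18, adjusted p = 0.00926). Fgf4, the ligand through which mESCs push themselves out of the naive state, was at 177, 90.9, 46.2 and 6.37 CPM in Nons and 228, 167, 126 and 32.2 CPM with the hairpin (1.26 ± 0.27, adjusted p = 0.04303), and unlike Esrrb it separated most on day 7. Each of these 4 declined from day 4 to day 7 in both groups, and the ranges of the groups over the days overlapped.

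The remaining naive rises were Tcl1, Gbx2 and Dppa3. Tcl1, a cofactor of Akt, was at 12.3, 3.47, 0.739 and 0.101 CPM in Nons and 21.8, 7.003, 3.02 and 0.689 CPM with Smarcc1.7 (1.66 ± 0.32, adjusted p = 0.0316). Gbx2, a homeobox factor downstream of LIF, was at 12.4, 3.04, 1.31 and 0.472 CPM in Nons and 24.01, 8.08, 4.62 and 1.26 CPM with the hairpin (1.40 ± 0.19, adjusted p = 0.00926). Dppa3 (Stella), which guards DNA methylation in the early embryo, was at 8.67, 33.1, 9.601 and 5.97 CPM in Nons and 14.5, 41.6, 18.8 and 13.3 CPM with the hairpin (0.80 ± 0.17, adjusted p = 0.04303). The hairpin library was the higher one of the pair on each day for all 3. Among the 7 that did not pass, Nanog had a log2 difference of 0.58 (adjusted p = 0.298), Zfp57 of 0.59, Tfcp2l1 of 0.62 and Klf5 of -0.45.

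**Figure D2:**
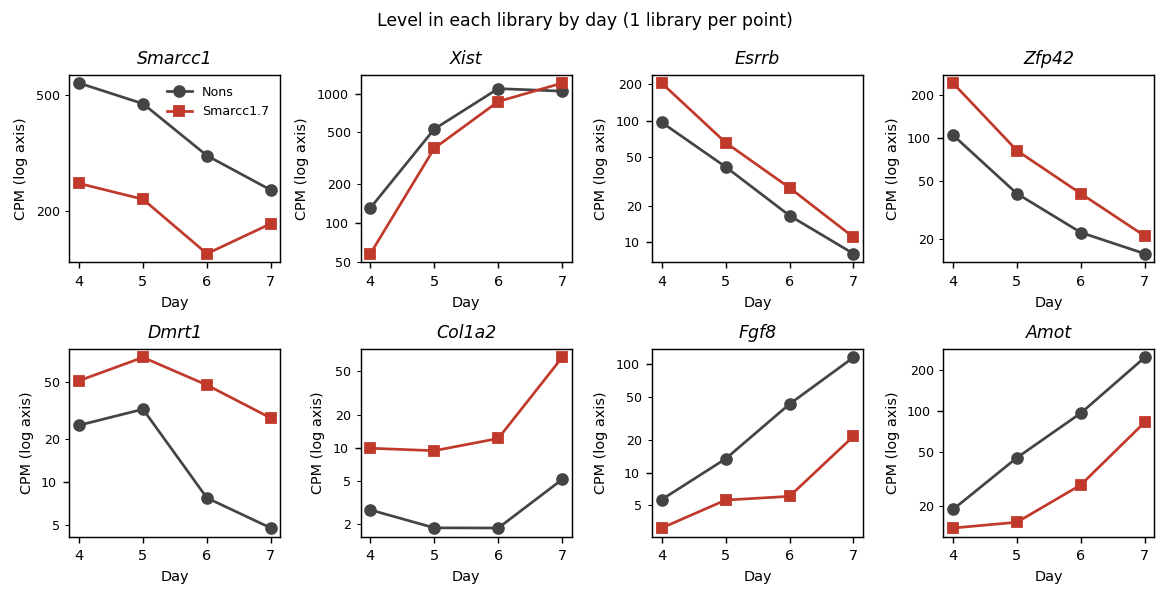
CPM on a log axis against day for 8 genes, with 1 library per point, dark grey circles for Nons and red squares for Smarcc1.7. Esrrb and Zfp42 decline in both groups with the hairpin above Nons on each day, Fgf8 and Amot climb in both with the hairpin below, the Col1a2 libraries of the groups do not overlap, and the Xist lines cross between days 6 and 7.

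Of 12 genes on the list of core pluripotency factors 2 rose, beside 1.69% of all tested genes, and none fell, with a median of 0.14. The difference between this list and the naive one was not tested. Dppa5a, an RNA-binding protein of pluripotent cells, was at 557, 343, 124 and 68.6 CPM in Nons and 842, 509, 241 and 187 CPM with Smarcc1.7 (0.89 ± 0.15, adjusted p = 0.0227). Dppa4, a chromatin protein, had a small spread, at 109, 77.6, 34.8 and 21.7 CPM in Nons and 152, 127, 53.01 and 31.3 CPM with the hairpin (0.58 ± 0.06, adjusted p = 0.00615). Pou5f1 (Oct4) had a log2 difference of 0.02, Tdgf1 of 0.10, Lin28a of -0.22 and Sall4 of -0.25, and none of these 4 passed. Sox2, a marker of pluripotent cells, was higher on all 4 days, at 219, 148, 68.1 and 12.9 CPM in Nons and 269, 175, 106 and 30.97 CPM with Smarcc1.7, and did not pass either (0.61, adjusted p = 0.06199). The formative and primed list, which includes Otx2, Dnmt3b, Pou3f1 and Fgf5, had no call among 13 tested members and a median of 0.22. Its most abundant members, the DNA methyltransferases Dnmt3b and Dnmt3a, their cofactor Dnmt3l and the factor Pou3f1, had log2 differences of 0.16, 0.63, 0.86 and 0.08. Otx2, named for lying just outside the threshold after its value was seen, was at 0.68 (adjusted p = 0.0513).

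Germline genes had the most rises of any list. Of 29 on the list 26 were tested, and 12 rose, beside 1.69% of all tested genes, and none fell (median 1.04). Of the 26, 22 were higher on all 4 days, beside 12.2% of all tested genes. They span the piRNA pathway, meiotic chromosome structure and germ cell RNA control, programmes that are normally repressed in somatic cells. Dmrt1 (chr19:25505618-25604329, plus strand), a transcription factor of germ and Sertoli cells, was at 25.01, 32.4, 7.73 and 4.75 CPM in Nons and 51.4, 74.9, 47.9 and 28.1 CPM with the hairpin (1.86 ± 0.27, 3.63-fold, adjusted p = 0.0121). Smc1b, a meiotic cohesin subunit, dropped from 71.6 to 0.539 CPM between days 4 and 7 in Nons and from 92.6 to 5.41 CPM with Smarcc1.7. Its same-day differences were 0.37, 1.36, 2.49 and 3.33 (1.89 ± 0.41, adjusted p = 0.0439), so the groups lay close together on day 4 and far apart on day 7.

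Piwil2, a PIWI protein that binds piRNAs, stood at 78.9, 19.97, 6.25 and 1.65 CPM in Nons and at 105, 57.2, 22.6 and 11.3 CPM with Smarcc1.7 (1.64 ± 0.32, adjusted p = 0.0333). Dazl, an RNA-binding protein of germ cells, declined steeply in both groups, with 262, 25.7, 4.57 and 0.607 CPM in Nons and 377, 64.8, 9.21 and 1.77 CPM with the hairpin (1.10 ± 0.20, adjusted p = 0.0281). The X-linked Taf7l, a germ cell relative of a TFIID subunit, was at 29.02, 24.4, 4.86 and 0.944 CPM in Nons and 40.9, 53.9, 19.998 and 5.16 CPM with the hairpin (1.53 ± 0.32, adjusted p = 0.0386). The other 7 were Slc25a31, an ADP/ATP carrier of germ cells (1.32 ± 0.28), the bromodomain protein Brdt (1.30 ± 0.18), the cohesin subunit Stag3 (1.25 ± 0.28), the piRNA factor Mael (1.06 ± 0.16), the synaptonemal complex protein Sycp1 (0.79 ± 0.16), Stk31 (0.70 ± 0.15) and the helicase Ddx4 (0.68 ± 0.10), with adjusted p from 0.0114 to 0.0477. Tex19.1 at 0.96, Tex15 at 0.46, Prdm1 at -0.28 and Kit at 0.27 did not pass.

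Genes of the 2-cell-like state, a rare condition of mESC cultures that resembles the 2-cell embryo, were few and low. Only 6 of 11 on the list were tested, 2 were below the filter and 3 had no entry. Of the 6, 3 rose (median 1.64), beside 1.69% of all tested genes. Gm13119, a member of the PRAME family, was at 1.09, 9.005, 4.204 and 0.775 CPM in Nons and 2.39, 20.7, 27.2 and 9.61 CPM with Smarcc1.7 (2.16 ± 0.40, adjusted p = 0.0283). Tcstv1 was at 0.419, 2.84, 2.16 and 0.742 CPM in Nons and 0.804, 5.86, 10.8 and 3.82 CPM with the hairpin (1.67 ± 0.30, adjusted p = 0.0283), and Tdpoz4 at 0.201, 0.732, 1.25 and 0.371 CPM in Nons and 0.781, 2.43, 2.64 and 1.65 CPM with the hairpin (1.73 ± 0.26, adjusted p = 0.0132). All 3 belong to families of near-identical copies, among which the counting may have divided reads, so the copy that rose is uncertain. Zscan4d (1.61), Zscan4c (1.26) and Zfp352 (1.09) did not pass.

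**Figure D3:**
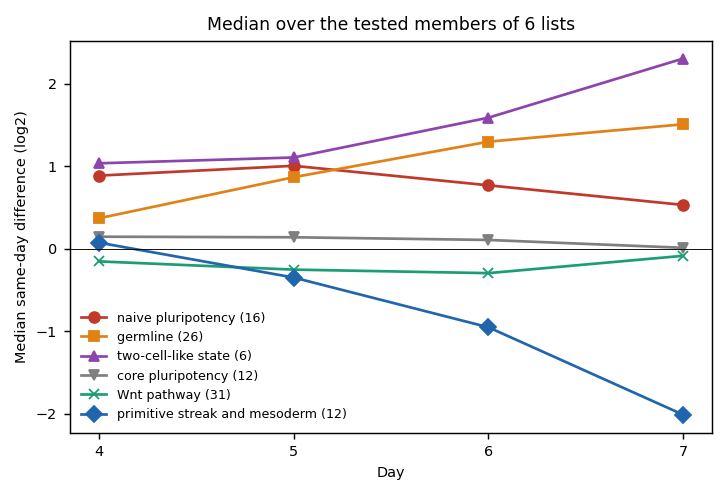
Median same-day log2 difference of Smarcc1.7 from Nons on days 4, 5, 6 and 7 over the tested members of 6 lists, with the number of members in brackets. The germline median goes from 0.37 on day 4 to 1.51 on day 7, the naive median from 0.89 to 0.53, and the primitive streak median from 0.07 to -2.01.

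The medians of these lists took different courses. The naive median was 0.89, 1.01, 0.77 and 0.53 on days 4 to 7, the germline median 0.37, 0.87, 1.30 and 1.51, and the 2-cell-like median 1.04, 1.11, 1.59 and 2.30. These are descriptions of the medians, since no gene passed the test for a difference in slope between Smarcc1.7 and Nons (0 of 13406, 425 at an unadjusted p under 0.05). Without the shallow Smarcc1.7 library of day 5, 3 naive, 4 germline and no 2-cell-like genes stayed past the threshold, with medians of 0.87, 1.05 and 1.72. Without day 6 none did, and the medians were 0.82, 0.87 and 1.53.

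Outside the lists, the largest rises included genes that declined with the days in both groups. Jam2 (chr16:84774123-84825928, plus strand), a junctional adhesion molecule, was the largest among genes with a mean level of at least 2, at 48.5, 3.296, 0.824 and 0.0674 CPM in Nons and 142, 20.01, 4.75 and 1.77 CPM with Smarcc1.7 (2.85 ± 0.45, 7.21-fold, adjusted p = 0.0161). Nons had 2 Jam2 reads on day 7, so the 4.72 of that day rests on few counts. The transcript 2410004A20Rik was at 78.2, 7.52, 2.698 and 0.708 CPM in Nons and 182, 55.7, 15.8 and 6.04 CPM with the hairpin (2.44 ± 0.32), and Ooep, an oocyte protein, at 52.8, 9.95, 3.38 and 1.21 CPM in Nons and 69.98, 26.7, 14.1 and 6.18 CPM with the hairpin (1.56 ± 0.32). BC096441 (1.84 ± 0.34) and Tmem92 (1.62 ± 0.33) completed the 12 largest at that level, and BC096441 overlaps Tnfsf13, and 2410004A20Rik overlaps Gm20509, on the same strand, so that reads of each pair may be shared. Among genes with a mean level under 2, Gpr133, Fcgrt and Zscan5b rose most. Gpr133, an adhesion receptor, was at 4.13, 0.603, 0.0256 and 0.0337 CPM in Nons and 9.83, 4.65, 0.8804 and 0.847 CPM with Smarcc1.7 (3.49 ± 0.64, adjusted p = 0.0283). Fcgrt, the neonatal Fc receptor, was at 6.22, 0.28005, 0.142 and 0.0337 CPM in Nons and 13.6, 2.86, 0.975 and 0.512 CPM with the hairpin (2.80 ± 0.45, adjusted p = 0.0168). The zinc finger gene Zscan5b was at 3.96, 0.711, 0.142 and 0.0303 CPM in Nons and 10.9, 5.43, 1.604 and 0.295 CPM with the hairpin (2.79 ± 0.40, adjusted p = 0.0114). The lowest Nons libraries held 0 reads of Gpr133 and Zscan5b and 1 of Fcgrt, so the value of 0.9 reads written for 0 bears on the folds of Gpr133 and Zscan5b, and that of Fcgrt rests on few reads.

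Col1a2 (chr6:4504814-4541543, plus strand), a chain of type I collagen, was the only named rise whose groups did not overlap. Overlap also depends on how far a gene moves with the days. No share over all tested genes is given for this or for the named falls. It was at 2.701, 1.85, 1.85 and 5.12 CPM in Nons and at 9.86, 9.36, 12.1 and 66.5 CPM with Smarcc1.7 (2.65 ± 0.28, 6.29-fold, adjusted p = 0.00615), and it climbed on day 7 while the naive genes declined. It is also a marker of fibroblasts. The paper describes derivation of its Xmas mESCs without feeder cells, and expansion of the F1 lines in its own culture conditions. The 12 fibroblast markers summed to between 11.8 and 99.2 CPM in Nons and between 22.1 and 198 CPM with the hairpin, 5 of the 12 were tested, and Col1a2 was the 1 that rose. Its partner chain Col1a1 was at 1.04, 1.55, 19.3 and 77.9 CPM in Nons and 1.49, 1.64, 14.2 and 112 CPM with Smarcc1.7 (0.17, adjusted p = 0.682), and Fap, Prrx1 and S100a4 stayed under 1 CPM in all 8 libraries. Thy1, a surface marker of fibroblasts that other cells also carry, was higher with the hairpin on each day, at 17.4, 4.29, 4.94 and 2.26 CPM in Nons and 22.8, 7.93, 6.603 and 6.69 CPM with Smarcc1.7, and did not pass (0.81, adjusted p = 0.0999). The part of other cells in the Col1a2 rise was not tested. Over all tested genes 1.69% rose. No other member of the collagen and matrix list passed among 17 tested, with a median of -0.27, and Fn1, fibronectin, had a log2 difference of -0.76 (adjusted p = 0.162).

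On the side of the falls stood some ligands and targets of the primitive streak. Fgf8 (chr19:45736798-45742915, minus strand), an FGF ligand needed for cells to leave the streak, was at 5.64, 13.4, 42.9 and 116 CPM in Nons and 3.08, 5.57, 6.04 and 21.7 CPM with Smarcc1.7 (-1.85 ± 0.28, 3.596-fold lower, adjusted p = 0.0147). It climbed in both groups, and the gap was widest on days 6 and 7. Wnt3, the ligand that starts the streak, was at 7.095, 11.5, 20.7 and 46.5 CPM in Nons and 2.69, 6.86, 5.91 and 11.5 CPM with the hairpin (-1.49 ± 0.23, adjusted p = 0.0147). These were the 2 calls among 12 tested members of the streak and mesoderm list, where 0.768% of all tested genes fell, and its median was -0.67 overall and 0.07, -0.35, -0.95 and -2.01 on days 4 to 7. The log2 differences of the 12 were mixed in sign and ran from -2.87 to 1.35. Of the 12, 3 were lower on all 4 days, beside 13.7% of all tested genes. Another 8 members were below the filter.

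Among the mesoderm markers, T (Brachyury), the defining factor of the streak, was at 1.96, 6.14, 32.8 and 180 CPM in Nons and at 2.02, 2.79, 1.07 and 4.12 CPM with Smarcc1.7 on days 4 to 7. The groups were alike on day 4 and apart on days 6 and 7, and the log2 difference of -2.87 ± 0.78 did not pass (adjusted p = 0.0777). Eomes, a T-box factor of mesoderm and endoderm, was at 38.1, 25.96, 71.4 and 110 CPM in Nons and 43.1, 18.2, 20.9 and 27.6 CPM with the hairpin (-1.03, adjusted p = 0.103). Mixl1 and Mesp1, below the filter, reached 33.03 and 9.94 CPM in Nons on day 7 and at most 0.551 and 0.666 CPM with Smarcc1.7. Snai1 (-0.63) and Evx1 (-1.54) did not pass either. The 4 mesoderm markers, T, Mixl1, Mesp1 and Eomes, summed to between 32.7 and 333 CPM in Nons and between 21.4 and 46.3 CPM with Smarcc1.7, with no marker at 0 in all 8 libraries. On day 4 the sum was 46.3 CPM with Smarcc1.7 against 40.5 CPM in Nons, while Fgf8 and Wnt3 were already lower with the hairpin. On days 5, 6 and 7 it was 21.4, 22.4 and 32.2 CPM with Smarcc1.7 against 32.7, 112 and 333 CPM in Nons. The part of fewer mesoderm cells in the falls of Fgf8, Wnt3 and their neighbours was not tested.

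Wnt signalling works through secreted ligands, R-spondins that amplify them, Frizzled and LRP receptors, and TCF factors with their targets. Of 41 genes listed 31 were tested, and 4 fell, beside 0.768% of all tested genes, and none rose (median -0.10). Of these, 2 are ligands, 1 is an amplifier and 1 is a target. Beside Wnt3 they were Wnt5b, with 2.42, 3.06, 7.75 and 14.9 CPM in Nons and 1.59, 1.86, 1.41 and 3.25 CPM with Smarcc1.7 (-1.49 ± 0.31, adjusted p = 0.0386), and Rspo3, an R-spondin, with 0.587, 1.31, 5.31 and 14.2 CPM in Nons and 0.299, 0.5002, 0.786 and 4.43 CPM with the hairpin (-1.70 ± 0.39, adjusted p = 0.0498). Sp5, a zinc finger target of the pathway, was at 0.386, 1.29, 9.203 and 34.7 CPM in Nons and 0.2297, 0.0715, 0.786 and 4.76 CPM with the hairpin (-2.83 ± 0.57, 7.13-fold lower, adjusted p = 0.0365), with 1 read in the shallow library of day 5. The receptors Fzd7 (0.35), Lgr4 (-0.01) and Lrp5 (-0.38) and the factor Tcf7l1 (0.01) did not pass.

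In the Nodal and activin pathway 3 of 20 tested genes fell (median -0.08), beside 0.768% of all tested genes. Fst (chr13:114452262-114458730, minus strand), follistatin, which binds and blocks activin, was the largest fall among genes with a mean level of at least 2, at 3.41, 16.9, 39.5 and 70.95 CPM in Nons and 2.34, 7.003, 3.302 and 6.34 CPM with Smarcc1.7 (-2.22 ± 0.46, 4.66-fold lower, adjusted p = 0.0386). Nons climbed on each day while the hairpin libraries stayed between 2.34 and 7.00 CPM. Fstl1, a follistatin-like glycoprotein, was at 36.4, 40.5, 105 and 139 CPM in Nons and 25.2, 22.2, 51.9 and 107 CPM with the hairpin (-0.70 ± 0.13, adjusted p = 0.0309). Both genes were lower with the hairpin on each day, whereas Nodal itself had a log2 difference of -0.01, its coreceptor Tdgf1 of 0.10, its inhibitor Lefty2 of -0.25 and its factor Foxh1 of -0.29, none of which passed.

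Without the shallow Smarcc1.7 library of day 5, Fgf8 and Wnt3 stayed past the threshold, and no gene of the Nodal list did. Without day 6 none of the streak, Wnt or Nodal genes did, and the streak median was -0.70. Over all tested genes 1.69% rose and 0.768% fell. In the FGF list 1 of 21 tested genes rose (Fgf4) and 1 fell (Fgf8), with a median of -0.07, and the feedback genes Etv5 (0.08) and Dusp6 (-0.13) did not pass. In the BMP list 1 of 18 fell, Smad1, the factor that carries BMP signals to the nucleus, at 8.14, 13.4, 20.3 and 22.1 CPM in Nons and 5.58, 8.15, 12.5 and 14.9 CPM with Smarcc1.7 (-0.63 ± 0.12, adjusted p = 0.0293). The trophoblast and simple epithelium list had 2 falls among 13, the transcription factors Tfap2a (-0.90 ± 0.21, adjusted p = 0.0498) and Gata2 (-0.65 ± 0.14, adjusted p = 0.04303), with a median of -0.26. Without the shallow library Fgf8 was the only call left in the FGF, BMP and trophoblast lists.

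**Figure D4:**
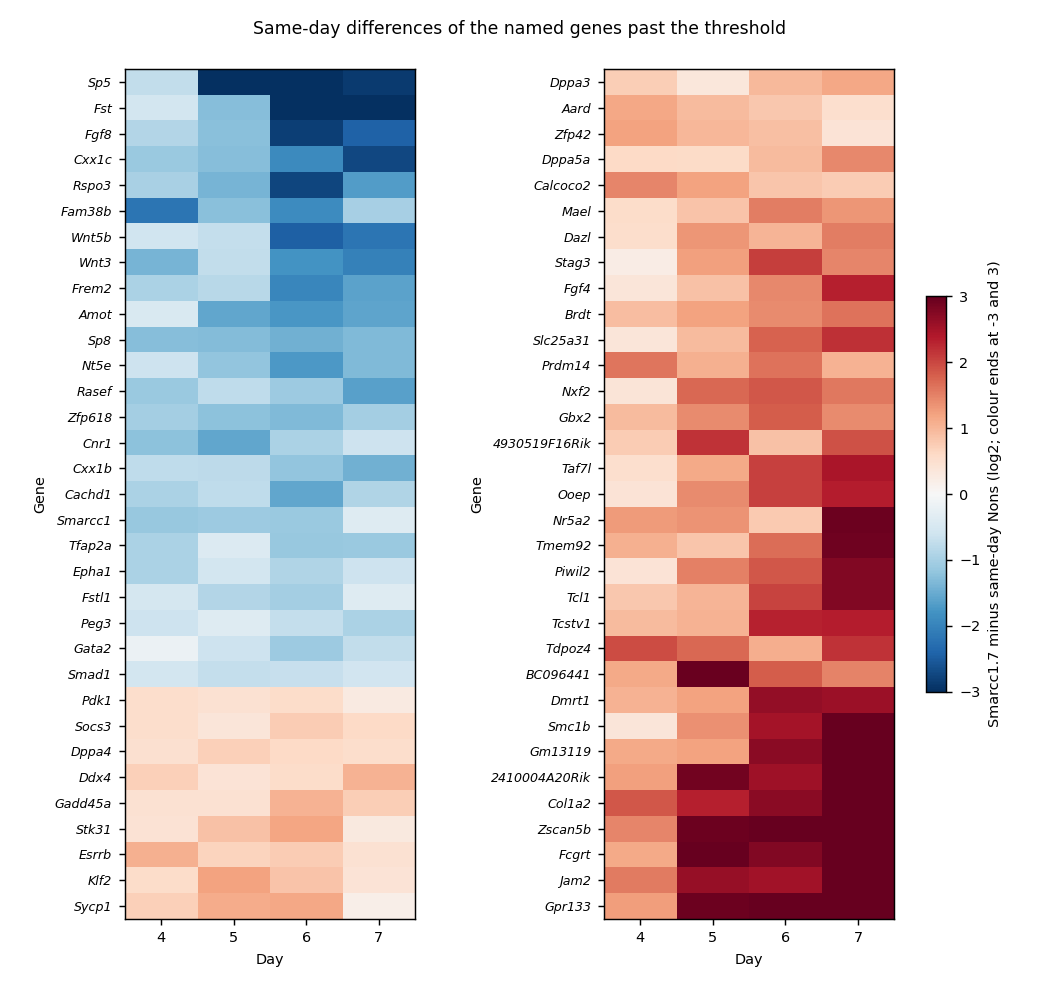
Same-day log2 difference of Smarcc1.7 from Nons on days 4, 5, 6 and 7 for 66 of the named genes past the threshold, ordered by mean change, with blue for lower and red for higher and colour ending at -3 and 3. Every cell of a gene has the same colour family, the day 4 cells of Fst, Amot and Smc1b are pale beside the later ones, and the day 7 cell of Smarcc1 is paler than its 3 others.

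Amot (angiomotin, chrX:145446425-145505181, minus strand), an X-linked scaffold of the Hippo pathway, was at 18.95, 45.3, 96.2 and 246 CPM in Nons and 13.9, 15.3, 28.7 and 82.5 CPM with Smarcc1.7 (-1.33 ± 0.19, 2.52-fold lower, adjusted p = 0.0114). Frem2, an extracellular protein of basement membranes, was at 10.4, 29.6, 19.4 and 40.5 CPM in Nons and 5.38, 16.6, 4.97 and 13.2 CPM with the hairpin (-1.34 ± 0.17, adjusted p = 0.00905). Cachd1, a relative of calcium channel subunits, was steady in Nons at 49.7, 52.9, 49.7 and 46.1 CPM and lay at 25.7, 31.1, 16.9 and 24.8 CPM with the hairpin (-1.04 ± 0.14, adjusted p = 0.00905), so that the groups did not overlap. The cannabinoid receptor Cnr1 did not overlap either, at 4.88, 13.2, 8.66 and 5.56 CPM in Nons and 2.07, 4.502, 4.47 and 3.603 CPM (-1.09 ± 0.24, adjusted p = 0.0462). Fam38b (Piezo2), a mechanosensitive channel (-1.58 ± 0.30), the zinc finger factor Sp8 (-1.33 ± 0.25), the ectonucleotidase Nt5e (-1.21 ± 0.25), Rasef (-1.15 ± 0.16) and Zfp618 (-1.15 ± 0.19) completed the 12 largest falls at a mean level of at least 2, with adjusted p from 0.009805 to 0.0386.

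Single members passed in 5 further lists, beside the 1.69% of all tested genes that rose and the 0.768% that fell. Epha1, an ephrin receptor, fell by 0.76 on the log2 scale (adjusted p = 0.00905) among 32 ephrins and semaphorins, and it overlaps Zyx on the opposite strand. Without a stated strand setting its reads cannot be told apart from those of Zyx, and the same holds for Wnt5b with Fbxl14, for Gbx2, Tcl1 and Gadd45a with noncoding or predicted genes, and for BC096441 with 2010012P19Rik. Peg3, an imprinted zinc finger gene, fell by 0.67 (adjusted p = 0.0391) among 26 imprinted genes. Pdk1, a kinase that diverts pyruvate from mitochondria, rose by 0.45 (adjusted p = 0.0323) among 19 genes of glycolysis. Socs3, the feedback inhibitor of STAT3, rose by 0.56 (adjusted p = 0.0454) among 17 of the LIF pathway, and Gadd45a, a stress protein tied to demethylation, by 0.68 (adjusted p = 0.0121) among 15 on the list of DNA methylation enzymes. The medians of these lists were -0.14, 0.05, 0.09, 0.14 and 0.24 in that order, and the mean of the imprinted list, -0.03, had the opposite sign. The cardiac and lateral mesoderm list had a median of -0.09 over 8 tested genes, and the fibroblast list a median of 0.19.

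**Figure D5:**
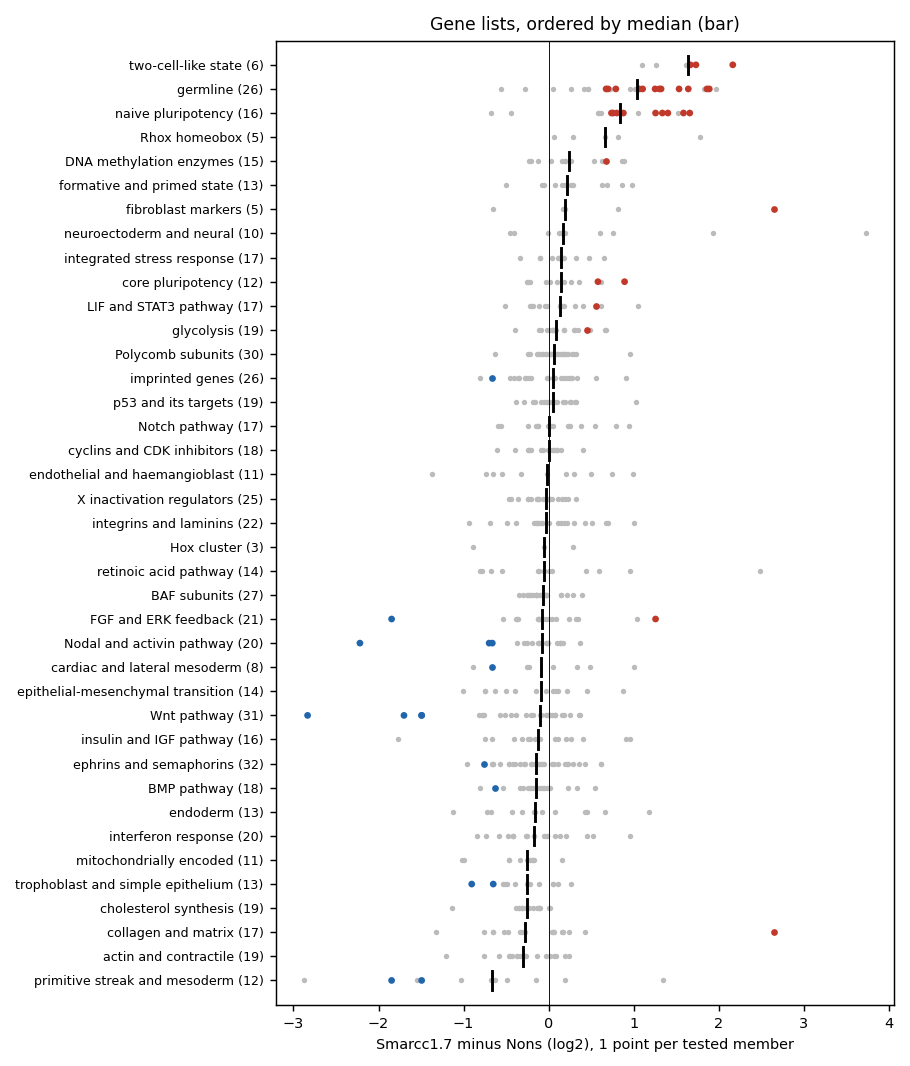
Log2 difference of Smarcc1.7 from Nons for the tested members of each list, 1 point per gene with red for genes that rose, blue for genes that fell and grey for the rest; the bar is the list's median and the number of tested members is in brackets. The 2-cell-like, germline and naive lists stand at the top with medians of 1.64, 1.04 and 0.84, and the streak list stands at the bottom with -0.67.

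No member passed in the remaining lists. Beyond Smarcc1, which was checked by itself, the BAF subunits had 0 calls among 27 tested and a median of -0.07, with Actb at -0.15, Smarca4, the ATPase, at -0.07, Arid1a at -0.04 and Pbrm1 at -0.10. The Polycomb subunits, 30 tested, had a median of 0.06, with Rbbp7 at -0.03, Rbbp4 at 0.03, Jarid2 at 0.32 and Phc1 at 0.02. The same held for endoderm (13 tested, median -0.16), neuroectoderm (10, 0.17), endothelial genes (11, -0.02), Hox genes (3 of 39 above the filter, -0.05), Rhox genes (5, 0.66), Notch (17, 0.01) and retinoic acid (14, -0.06). It held too for the epithelial-mesenchymal transition (14, -0.09), integrins and laminins (22, -0.04), actin and contractile genes (19, -0.30), cyclins (18, 0.01), p53 targets (19, 0.05), insulin and IGF (16, -0.13), the integrated stress response (17, 0.14) and the interferon response (20, -0.17). The interferon list bears on the virus that delivers the hairpin, which Nons cells received as well. Its most abundant members were Irf1 at -0.05, Ifitm3 at 0.46, Ifitm1 at 0.96 (adjusted p = 0.05495) and Bst2 at 0.21. Mitochondrially encoded genes (11, -0.25) and cholesterol synthesis (19, -0.26) also had no call. The mean had the opposite sign to the median for retinoic acid (0.10), integrins and laminins (0.04) and cyclins (-0.06).

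X inactivation was the process the study set out to follow, and none of 25 tested regulators passed with Smarcc1.7 (median -0.03). Xist (chrX:103460375-103483217, minus strand) was at 130, 531, 1092 and 1043 CPM in Nons on days 4 to 7 and at 57.6, 377, 867 and 1205 CPM with the hairpin, against 7.09 CPM in the single Day0 library. The hairpin libraries were the lower ones on days 4 to 6 and the higher one on day 7 (differences -1.17, -0.49, -0.33 and 0.21), and the log2 change of -0.45 ± 0.17 did not pass by limma (unadjusted p = 0.0205, adjusted p = 0.159). It passed without Nons of day 7, at -0.65 (adjusted p = 0.0291), and not without day 7 in all groups, at -0.67 (adjusted p = 0.0562). Tsix, the antisense repressor of Xist, was at 17.998, 42.5, 100 and 76.6 CPM in Nons and 12.96, 37.5, 78.1 and 105 CPM with Smarcc1.7 (-0.14 ± 0.16, adjusted p = 0.656). The strand setting of the counting was not stated, and without it reads of Xist and Tsix cannot be told apart. Xist with Smarcc1.6 changed by -1.06 (adjusted p = 0.00516), and the direct difference between the hairpins, 0.61 (95% interval 0.24 to 0.97), had an adjusted p of 0.989.

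The level of X-linked genes relative to autosomal ones showed no difference beyond the spread over days. Taken over 507 X-linked and 12886 autosomal genes, the margin of the X median over the autosomal one was 0.40, 0.12, -0.10 and -0.12 on the log2 CPM scale in Nons on days 4 to 7, and 0.36, 0.29, -0.07 and -0.14 with Smarcc1.7. The margin shrank over the course in both groups, and the same-day differences of -0.05, 0.18, 0.03 and -0.02 averaged 0.04 ± 0.10 (SD, n = 4), smaller than their own spread. Taken gene by gene, the median log2 change was 0.035 on the X, and on each autosome it was below 0, between -0.043 and -0.005. With Smarcc1.6 the medians were 0.080 on the X and -0.0066 over the autosomes. No test was made of these medians. Among X-linked genes 14 rose (2.76%, beside 1.69% of all tested genes) and 11 fell (2.17%, beside 0.768%). The difference between these shares was not tested. The largest rises were Taf7l, 4930519F16Rik (1.43 ± 0.32), which overlaps Nap1l2, and Nxf2, a germline mRNA export factor (1.39 ± 0.29). The largest falls were Cxx1c at 1.34, 5.23, 5.91 and 16.04 CPM in Nons and 0.6203, 2.14, 1.57 and 2.42 CPM with the hairpin (-1.76 ± 0.27), Amot, and Cxx1b (-1.05 ± 0.22), and the Cxx1 genes are near-identical neighbours whose reads may be shared. Both alleles were counted together, so these values do not speak of the silenced X alone.

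The 4 libraries of Smarcc1.6, which do not enter the means of Smarcc1.7 or Nons, gave a view of how these genes move with time. They did enter the filter and the estimate of the spread by which the genes were called, so this view is not independent of the calls. There, 178 of the 226 genes that rose with Smarcc1.7 declined from day 4 to day 7 (78.8%, median slope -0.52 log2 units per day), and 14 of the 103 that fell did (13.6%, median slope 0.45), against 44.9% of all tested genes (median slope 0.04). In these libraries most genes of the first kind thus declined over the course and most of the second kind climbed. Day0, the 1 library before differentiation, was below all 4 Smarcc1.6 libraries for 48 of the 103 falls (46.6%, against 31.9% of all genes). It was above all 4 for 62 of the 226 rises (27.4%, against 24.5%). For the rises the share was close to that of all genes.

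Set directly against Smarcc1.6, Smarcc1.7 gave 0 calls by limma, with 530 of 13406 genes at an unadjusted p under 0.05. Against the shared Nons libraries Smarcc1.6 gave 750 rises (5.59%) and 497 falls (3.71%). The genes that rose with Smarcc1.7 had a median log2 change of 1.21 with Smarcc1.6 and 1.00 with Smarcc1.7, and the falls -0.78 and -0.68. The smallest p-values belonged to Calcoco2, an autophagy receptor, at 124, 96.4, 27.4 and 13.6 CPM with Smarcc1.6 and 78.9, 62.2, 12.2 and 7.05 CPM with Smarcc1.7, a difference of -0.85 (95% interval -1.12 to -0.58, adjusted p = 0.214). Aard followed at -1.01 (-1.33 to -0.68, adjusted p = 0.214) and Plekha2 at 0.35 (0.21 to 0.50, adjusted p = 0.989). Calcoco2 and Aard were also past the threshold for Smarcc1.7 against Nons (1.06 ± 0.12 and 0.85 ± 0.15), on the same side as with Smarcc1.6 and nearer to Nons.

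The guide could also pair through its seed with messages other than Smarcc1. The letters ATGAGCA, the complement of the Smarcc1.7 seed, occurred in the annotated 3′ UTR of 1324 tested genes and not in that of 11122 others (10.6% held them), Smarcc1 left aside. Their median log2 difference from Nons was -0.04 against -0.02 without the letters, and with Smarcc1.6, whose seed differs, it was -0.032 against -0.0033. In the direct contrast of the hairpins the medians were -0.0012 and -0.015. The UTRs that held the letters were longer, with a median of 2672 bases against 1048. Of the genes with the letters 15 fell (1.13%) and 18 rose (1.36%), beside 0.764% and 1.71% of those without. A match is a description of the letters and not of a bound site. Apart from Smarcc1, 7 genes held a stretch complementary to guide bases 2 to 15, and the 5 of these that were tested, Akap13, Ckap2, Fnbp1, Iqce and Nynrin, lay between -0.08 and 0.07 with none past the threshold.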

How the data were processed

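The members and gene lists were chosen with earlier results of these data known. The authors sequenced TruSeq libraries as paired reads, trimmed them, aligned them with tophat or hisat2 to mm10 with FVB/CAST differences masked (TopHat2 2.0.12 is in the submitters' processing notes) and quantified genes in Seqmonk. The authors deposited log2 CPM per gene and library, where 0 reads stand as 0.9 reads. The strand setting and annotation release were not given in the sources used here, and 0 columns of samples went unused.

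Of 25965 entries, the 13406 whose mean over 12 libraries reached 0 were fitted with limma 3.58.1 in R 4.3.3 (lmFit, eBayes with trend) with group and day as factors, and p-values were adjusted by Benjamini-Hochberg over all of them. The 12 libraries leave 6 residual degrees of freedom. Day is given in the labels, and same-day libraries deviated together from their group means (r = 0.893, 0.781, 0.883 and 0.868 on days 4 to 7, across genes, which are not independent). Depth was 13993440 to 63548093 mapped reads. On simulated data with 13406 genes, the Smarcc1.7 comparison recovered 98% of changes of 1 log2 unit and 72% of changes of 0.5, and 4.49% of 178 calls were false. The simulated counts had a single fixed spread beyond counting noise for every gene. Unchanged genes had the same mean in all groups of a day, with no variation shared by a library. These rates therefore describe the simulation, and those of the real libraries may be worse.

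Named were Smarcc1, Xist and Tsix, the 12 largest rises and falls with the same sign on 4 days and a mean level of at least 2, the 3 largest of each below that level, the 3 largest X-linked of each, all called members of the 39 lists, the 3 smallest p-values between hairpins, and up to 4 uncalled members per list by level. The marker genes Mixl1, Mesp1, Sox2, Thy1, Fap, Prrx1 and S100a4 came from the cell type markers, and any other name was chosen after its values were seen. Some genes that the rule covers are not reported here. The hairpin oligonucleotides were those the study designed, and gene positions and target sites came from GENCODE M21 on mm10, which held 98.5% of tested symbols. Alternatives were other filters, read additions, scalings, thinning, voom weights, variance settings, no day block, the 8 libraries alone, and each library or day left out. The addition of 0.5 CPM and the removal of genes shifted on day 6 were chosen after seeing the data.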

Additional observations from a re-analysis of the deposited data

Results flagged for a closer look

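Among the 86 results examined over the 4 days, 3 had 1 day well outside the range of the others, which about 1 in 20 would show by chance. Smarcc1 stood apart on day 7, with a same-day difference of -0.38 against -1.14, -1.08 and -1.11 on days 4, 5 and 6. Amot stood apart on day 4, with -0.45 against -1.57, -1.74 and -1.57 on the later days. The median of the collagen and matrix list stood apart on day 6, with -0.90 against -0.03, -0.05 and -0.08, and on that day the libraries of all groups differed from the rest in their share of reads in genes. The causes were not tested.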

How the results depend on the processing

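All 329 genes kept their direction in every alternative that tested them. For the 327 with the same sign on all 4 days, this was fixed in advance where a whole day was left out. It was also fixed for the 8 libraries alone and for no day block, which leave the estimates unchanged. Scaling, thinning, voom weights, robust variances and added reads left both counts within 1.5 times. With the filter raised to a mean level of 2, 119 genes were higher. With no filter 341 were higher, and 2 differed between the hairpins. Without the variance trend 101 were higher and 44 lower. No gene was higher or lower (0 and 0) with the 8 libraries alone or without day as a block, the latter with 133 higher and 105 lower at an unadjusted p under 0.05. The Smarcc1 difference stayed at -0.93 in those 3 fits and lost its call, with an adjusted p of 0.0507 without the trend, 0.0538 with 8 libraries and 1.00 without the block. With a library or day left out, the higher count ran from 1 to 630, the lower from 0 to 422, the Smarcc1 difference from -1.12 to -0.81, Xist from -0.67 to -0.21 and Tsix from -0.34 to 0.022, the last without Smarcc1.7 of day 4. The mean of the imprinted list was -0.026 against a median of 0.05. The causes were not tested. Having 4 days with 1 library each limits all of these counts, and the shallowest library limits genes of few reads.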

Other observations

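The cholesterol synthesis list, the mevalonate and sterol enzymes with their regulators, had 0 calls among 19 tested genes, and 9 of the 19 were lower on all 4 days, beside 13.7% of all tested genes. Hmgcs1, an early enzyme of the pathway, had a log2 difference of -0.18 (adjusted p = 0.159), and Srebf2, its transcriptional regulator, of -0.11 (adjusted p = 0.577).

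The Rhox list, X-linked homeobox genes of the reproductive tract and placenta, had 0 calls among 5 tested genes and a median log2 difference of 0.66. Rhox1 was at 1.78, Rhox5 at 0.66, Rhox6 at 0.06, Rhox9 at 0.29 and Rhox13 at 0.81, with adjusted p from 0.0924 to 0.895.

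By chromosome, the share of tested genes that fell was 2.20% on chromosome 18 (7 of 318) and 2.17% on the X, against 0.768% of all tested genes. The chromosomes were looked at after the calls were known, and no test was made of these shares.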
